A study of Rattus norvegicus with 16 samples.

Results

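The actin cytoskeleton genes and the transcription factor that drives many of them, 10 genes in all, were followed in rat hepatocyte cultures treated with SQ1 or pravastatin. The genes were chosen by name: Acta2, Tagln, Cnn1, Myl9 and Tpm1 as smooth muscle type genes, Actb, Actg1, Actn1 and Vcl as general actin genes, and Srf as their regulator. All 10 had probes, 13 probes in all, and all 10 were among the 20395 genes tested, of which 11937 had a symbol. The selection rule names the genes and sets no threshold on their values.

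Hepatocytes of male Sprague Dawley rats were kept as primary cultures in Williams Medium E. From 48 hours after plating, cultures received 100 µM SQ1, 30 µM pravastatin or no drug for 48 hours, and the untreated cultures are the only controls. Each of the 16 Agilent arrays held RNA of 1 treated and 1 untreated culture in different dyes, the Alexa dyes A555 and A647, with 8 arrays per drug and 4 in each dye orientation. The series' design text calls the cultures biological replicates, and no label ties a culture to an animal, so the p-values measure the spread between these cultures. SQ1 is a code name in the labels, known from hepatocyte work as squalestatin 1, which inhibits squalene synthase, and pravastatin, a statin, inhibits HMG-CoA reductase upstream of it. The deposited table of processed values goes against the sample labels: each of its columns matched the scanner file that the other drug had under that replicate number (r across probes 0.999 to 1.00 against 0.450 to 0.562 for its own). The drug names used here follow the sample labels and their scanner files. If the table were right, every value given for SQ1 would belong to pravastatin and the reverse.

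Actin monomers polymerise into filaments that give a cell its shape and, with myosin, its tension. Monomeric actin holds the coactivators MRTF-A and MRTF-B in the cytoplasm, and when filaments grow the coactivators enter the nucleus and bind serum response factor, the product of Srf. SRF binds CArG boxes in the promoters of actin and contractile genes, its own promoter among them. In liver, alpha smooth muscle actin and other contractile genes are known as marks of activated stellate cells and myofibroblasts, while the cytoplasmic actins are made by every cell type.

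RefSeq promoter windows of assembly GRCr8, from 250 bases before to 50 bases after the annotated start, were found for 7 of the 10 genes: Acta2, Cnn1, Tpm1, Actg1, Actn1, Vcl and Srf. They were searched for the CArG box, written as CC, then 6 bases that are each A or T, then GG, a pattern that reads the same on both strands. Of all 33469 rat promoter windows, 1.64% held such a box and 8.10% a version with 1 G or C among the 6 middle bases. The exact box was found in Srf and Actg1, and the version with 1 G or C, called altered here, in Acta2. Binding of SRF to either form was not tested. The 250 bases before the start are shown for these 3 genes. They are written 5′ to 3′ along the gene with the matches in capitals: Srf at chr9:21923826-21924075 on the plus strand, Actg1 at chr10:106120952-106121201 on the minus strand and Acta2 at chr1:241172504-241172753 on the minus strand.
Srf: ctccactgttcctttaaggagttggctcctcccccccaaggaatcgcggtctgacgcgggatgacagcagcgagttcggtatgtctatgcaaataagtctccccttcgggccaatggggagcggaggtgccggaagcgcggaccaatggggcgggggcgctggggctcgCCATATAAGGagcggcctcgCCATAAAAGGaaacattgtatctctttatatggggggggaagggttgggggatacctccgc
Actg1: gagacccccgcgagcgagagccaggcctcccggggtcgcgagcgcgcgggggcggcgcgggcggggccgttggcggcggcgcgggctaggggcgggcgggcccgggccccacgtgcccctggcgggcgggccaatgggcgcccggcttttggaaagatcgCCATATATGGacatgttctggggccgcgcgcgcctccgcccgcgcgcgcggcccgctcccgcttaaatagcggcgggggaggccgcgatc
Acta2: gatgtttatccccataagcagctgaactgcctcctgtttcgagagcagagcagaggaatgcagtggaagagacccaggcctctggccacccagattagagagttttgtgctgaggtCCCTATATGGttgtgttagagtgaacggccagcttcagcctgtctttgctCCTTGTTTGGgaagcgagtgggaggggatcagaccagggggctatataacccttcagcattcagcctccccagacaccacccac

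The Srf window held 2 boxes, CCATATAAGG starting 81 bases and CCATAAAAGG starting 61 bases before the start, which do not overlap. The Actg1 window held 1 box, CCATATATGG, starting 90 bases before the start. In Acta2 the altered matches were CCCTATATGG, starting 134 bases, and CCTTGTTTGG, starting 84 bases before the start. Cnn1, Tpm1, Actn1 and Vcl had neither form in these windows. A match describes the letters only.

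With SQ1, the smooth muscle type genes mostly fell, and most of the general actin genes did not pass the test. Of the 5 smooth muscle type genes, 4 fell with SQ1 (Acta2, Myl9, Tagln and Tpm1) and Cnn1 rose. Of the 4 general actin genes, none fell, Actg1 was called higher by a probe that followed the dye, and Actb, Actn1 and Vcl did not pass the test. Srf itself rose. A call means an adjusted p under 0.05 over all 20395 genes in limma, and among these genes 32.7% were called higher and 31.2% lower with SQ1, so a call by itself is common here and the sizes carry more than the counts. Over the 10 genes this made 3 higher and 4 lower.

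With pravastatin, 3 of the 5 smooth muscle type genes fell (Myl9, Tagln and Cnn1), Acta2 and Tpm1 did not pass, and among the other genes Srf and the same Actg1 probe were called higher. The background was 19.4% of all genes higher and 19.7% lower with pravastatin. Between the drugs, Cnn1 was higher with SQ1 than with pravastatin and Acta2 and Tpm1 were lower, against 18.5% of all genes higher and 19.5% lower. The doses differed and the drugs lay on separate slides, so drug, dose and slide cannot be told apart in that contrast. The 2 drug comparisons share untreated cultures by number, and each is given with its own values.

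**Figure D1:**
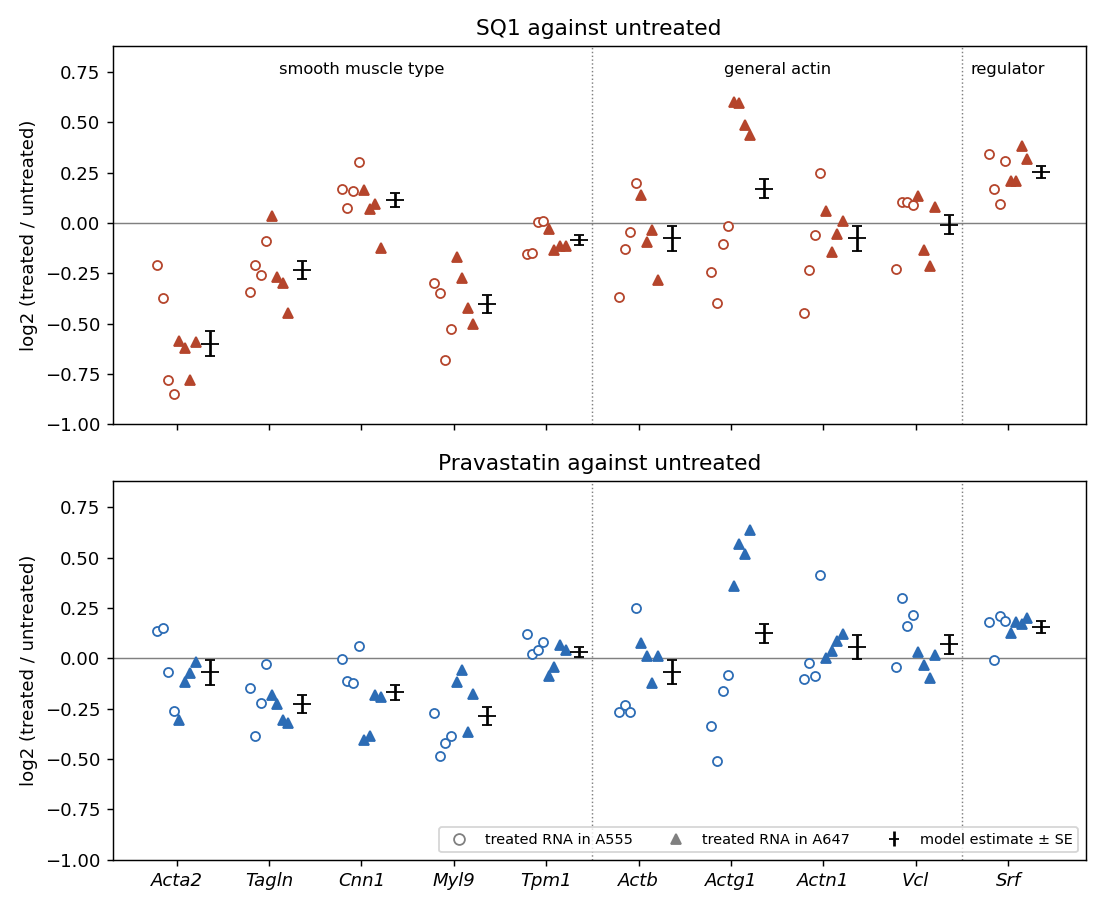
Log2 of treated over untreated signal for the 10 genes on each of the 8 SQ1 arrays (upper panel) and 8 pravastatin arrays (lower panel), open circles with treated RNA in A555 and filled triangles with treated RNA in A647, and the model estimate with its SE in black. All 8 SQ1 arrays lie below 0 for Acta2 and Myl9 and above 0 for Srf, while Actg1 separates by dye under both drugs.

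Acta2, alpha smooth muscle actin, moved most among the 10 genes under SQ1. Its log2 ratio of treated over untreated was -0.85 on the lowest, -0.61 at the median and -0.21 on the highest of the 8 SQ1 arrays. On the pravastatin arrays these values were -0.31, -0.07 and 0.15. All 8 SQ1 arrays were below 0, whereas the pravastatin arrays lay on both sides of it. The modelled fall with SQ1 was -0.60 ± 0.06 (log2, SE, n = 8), or 1.51-fold, with an adjusted p of 9.2e-08 in limma, and it ranked at percentile 4.21 of all genes' log2 changes. With pravastatin the value was -0.07 ± 0.06 (adjusted p = 0.403, 95% interval -0.20 to 0.06). SQ1 minus pravastatin was -0.53 ± 0.09 (adjusted p = 7.98e-05) and negative in 8 of 8 same-numbered pairs of arrays, from -0.71 to -0.28.

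Myl9, a regulatory light chain of smooth muscle and non-muscle myosin, fell with both drugs. Its log2 ratios ran from -0.68 through a median of -0.38 to -0.17 on the SQ1 arrays. On the pravastatin arrays they ran from -0.48 through -0.32 to -0.06. Every one of the 16 arrays was below 0, and the ranges of the drugs overlapped. The falls were -0.40 ± 0.05 with SQ1 (1.32-fold, adjusted p = 3.44e-07) and -0.29 ± 0.05 with pravastatin (adjusted p = 6.54e-05). The drugs differed by -0.12 ± 0.06 (adjusted p = 0.17), with a 95% interval of -0.25 to 0.02, and the sign turned when arrays were scaled to 1 spread (0.12, adjusted p = 0.543).

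Tagln encodes transgelin, an actin-binding protein abundant in smooth muscle. It ranged from -0.45 through a median of -0.26 to 0.04 on the SQ1 arrays and from -0.39 through -0.22 to -0.03 on the pravastatin arrays. It was below 0 on 7 of 8 SQ1 arrays and on 8 of 8 pravastatin arrays. The fitted falls were nearly equal, -0.23 ± 0.04 with SQ1 (adjusted p = 0.000155, and -0.14 with adjusted p = 0.0315 with median centring) and -0.23 ± 0.04 with pravastatin (adjusted p = 0.000513). Their difference was -0.01 ± 0.06 (adjusted p = 0.953), with a 95% interval of -0.14 to 0.13.

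Cnn1, calponin, an inhibitor of actomyosin in smooth muscle, went in opposite directions under the drugs. Its log2 ratio was between -0.12 and 0.30 on the SQ1 arrays, with a median of 0.13 and 7 of 8 above 0. On the pravastatin arrays it was between -0.41 and 0.06, with a median of -0.15 and 7 of 8 below 0. The fit gave 0.11 ± 0.04 with SQ1 (adjusted p = 0.0116) and -0.17 ± 0.04 with pravastatin (adjusted p = 0.00145). The difference was 0.28 ± 0.05 (adjusted p = 0.000307) and positive in 8 of 8 same-numbered pairs. Cnn1 was the dimmest of the genes' chosen probes against its own background: it was well above background in 23 of the 32 channel measurements, where every other gene had 32. Agilent's processed signals gave larger values, 0.37 with SQ1, -0.62 with pravastatin and 0.99 for the difference. The SQ1 rise did not pass with median centring (0.09, adjusted p = 0.149), with arrays scaled to 1 spread (adjusted p = 0.093), with slide as a block (adjusted p = 0.0565), or within culture series 1 or 2 (adjusted p = 0.0759 and 0.0573), and over the 29 alternatives that keep the drug labels and both dye orientations its adjusted p ran from 0.00485 to 0.149. The pravastatin fall did not pass within culture series 2 (-0.11, adjusted p = 0.0795). Cnn1 also had a called dye term in the fit (-0.09, adjusted p = 0.0172), as had 20.6% of all genes. On the A555 arrays alone the pravastatin fall was -0.04 (adjusted p = 0.553). On the A647 arrays alone the SQ1 rise was 0.05 (adjusted p = 0.446).

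Tpm1, a tropomyosin that lies along the actin filament, is expressed as muscle and non-muscle isoforms, and its 2 probes carry different transcript accessions. The brighter probe gave -0.15, -0.11 and 0.01 on the lowest, median and highest SQ1 array and -0.09, 0.04 and 0.12 on the pravastatin arrays. The change with SQ1 was small, -0.08 ± 0.03 (adjusted p = 0.00767), and turned to 0.05 with median centring (adjusted p = 0.41). With pravastatin it was 0.03 ± 0.03 (adjusted p = 0.387). The difference of -0.12 ± 0.04 (adjusted p = 0.0176) did not pass with median centring (-0.04, adjusted p = 0.681) or with the mean of the 2 probes (-0.08, adjusted p = 0.0638). The dimmer probe gave -0.07 with SQ1 and -0.02 with pravastatin.

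The arrays fell into 2 culture series, read from the control numbers in the deposited names (1 to 4 and 13 to 16), with 4 arrays of each drug in each. The series coincided with scan day and with slides, so none of these can be told apart. Acta2 changed with SQ1 by -0.45 (log2) in series 1 and by -0.75 in series 2, a difference of -0.30 ± 0.10 (adjusted p = 0.0485). Myl9 changed by -0.27 and -0.53, a difference of -0.26 ± 0.06 (adjusted p = 0.00834). Among all genes 15.0% differed between the series under SQ1. Both genes were called lower with SQ1 within each series. Tagln changed with SQ1 by -0.19 and -0.27 and with pravastatin by -0.24 and -0.22 in series 1 and 2, without a called difference between the series.

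**Figure D2:**
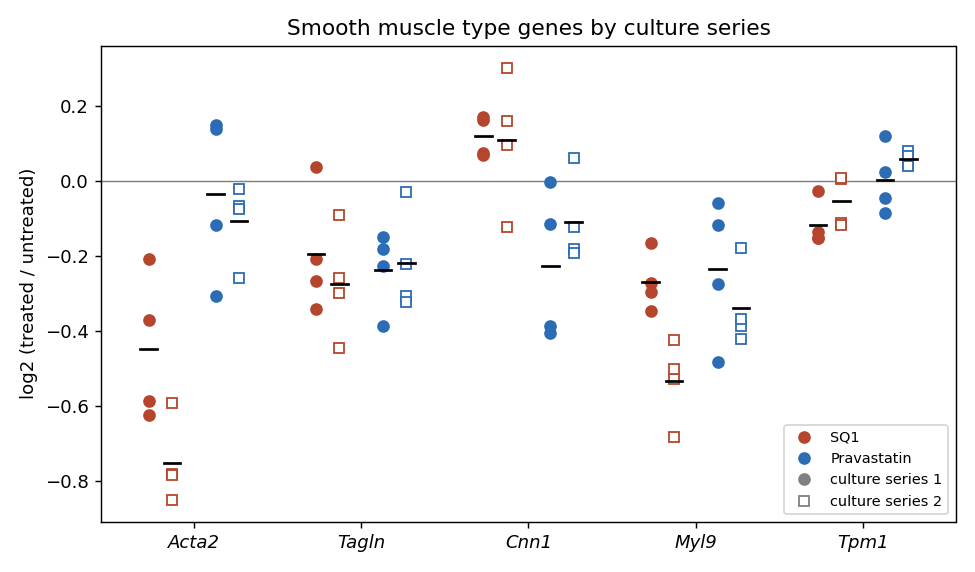
Log2 of treated over untreated signal of the 5 smooth muscle type genes on each array, in culture series 1 (filled circles) and series 2 (open squares), SQ1 in red and pravastatin in blue, with the mean of each group of 4 arrays as a bar. Acta2 and Myl9 lie lower with SQ1 in series 2 than in series 1, with fitted values of -0.75 against -0.45 and -0.53 against -0.27.

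The general actin genes stayed close to 0 on average, with array values on both sides. Actb, the beta cytoplasmic actin often used as a reference transcript, ranged from -0.37 through a median of -0.07 to 0.20 on the SQ1 arrays and from -0.27 through -0.06 to 0.25 on the pravastatin arrays. Its fitted values were -0.08 ± 0.06 with SQ1 (adjusted p = 0.286, and 0.12 with median centring) and -0.07 ± 0.06 with pravastatin (adjusted p = 0.425, and 0.02 with median centring). The drugs differed by -0.01 ± 0.09 (adjusted p = 0.946, 95% interval -0.19 to 0.17). Arrays therefore differed from each other for Actb by more than the fitted change.

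Actn1, alpha-actinin, which cross-links actin filaments, ran from -0.45 through -0.06 to 0.25 with SQ1 and from -0.10 through 0.02 to 0.41 with pravastatin. The fitted values were -0.08 ± 0.06 (adjusted p = 0.285) and 0.06 ± 0.06 (adjusted p = 0.518), and the SQ1 value was -0.19 within culture series 1 (adjusted p = 0.0106) and 0.04 within series 2. The drugs differed by -0.13 ± 0.09 (adjusted p = 0.253), which passed with the replicate number as a fixed replicate block (adjusted p = 0.0197). Vcl, vinculin, which links actin to adhesion sites, ran from -0.23 through 0.09 to 0.13 with SQ1 and from -0.10 through 0.02 to 0.30 with pravastatin. Its fitted values were -0.01 ± 0.05 (adjusted p = 0.899) and 0.07 ± 0.05 (adjusted p = 0.256), and they did not differ beyond their spread (-0.08 ± 0.06, adjusted p = 0.39). The dimmer Vcl probe gave 0.02 with SQ1 and -0.04 with pravastatin.

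Actg1, the gamma cytoplasmic actin, was called higher with both drugs by its brighter probe, but the arrays of a drug split by dye. With treated RNA in A555 the log2 ratio was between -0.40 and -0.02 for SQ1 and between -0.51 and -0.08 for pravastatin. With treated RNA in A647 it was between 0.44 and 0.60 for SQ1 and between 0.36 and 0.64 for pravastatin. The sign thus followed the dye orientation on all 16 arrays, and neither drug gave 1 direction. The dye term of the fit was 0.38 (adjusted p = 1.9e-07), at the 99.4th percentile of dye terms by size, where 20.6% of all genes had a called dye term. The drug terms, which average the orientations, were 0.17 ± 0.05 with SQ1 (adjusted p = 0.00353) and 0.12 ± 0.05 with pravastatin (adjusted p = 0.0416), and 0.39 and 0.23 with median centring. Only the A555 arrays gave -0.19 (adjusted p = 0.0613) and -0.27 (adjusted p = 0.0276). The dimmer Actg1 probe did not split by dye and gave 0.06 ± 0.07 and -0.01 ± 0.07, and the mean of both probes did not pass for either drug (0.12, adjusted p = 0.0501, and 0.06, adjusted p = 0.401). The actins are close in sequence, and signal on one actin probe from another actin's RNA was not tested.

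**Figure D3:**
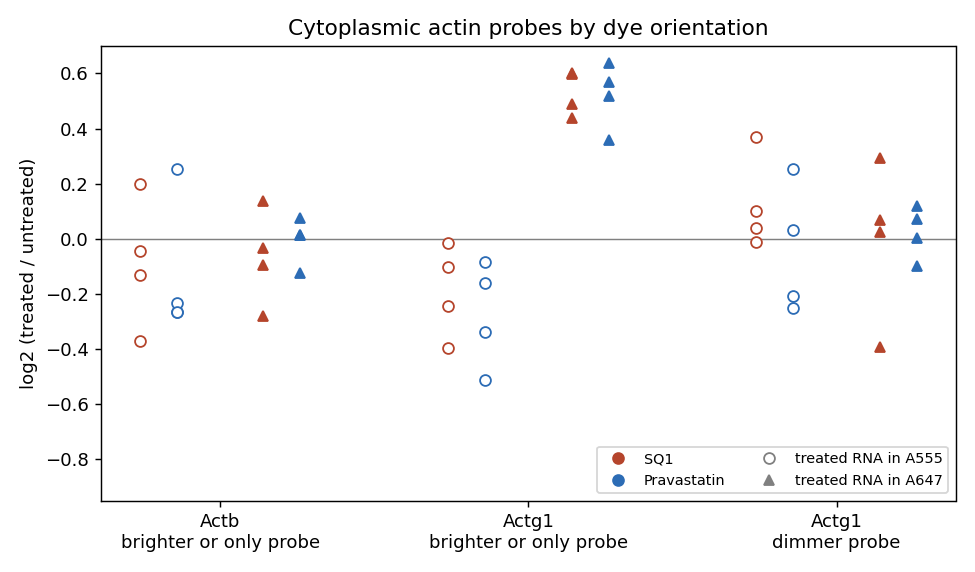
Log2 of treated over untreated signal for the Actb probe and the 2 Actg1 probes on each array, SQ1 in red and pravastatin in blue, open circles with treated RNA in A555 and filled triangles with treated RNA in A647. For the brighter Actg1 probe every open circle lies below 0 and every triangle above it, while the dimmer probe and Actb mix.

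Srf, the regulator, rose with both drugs. Its log2 ratio was 0.10, 0.26 and 0.38 on the lowest, median and highest SQ1 array and -0.01, 0.18 and 0.21 on the pravastatin arrays. It was above 0 on 8 of 8 SQ1 arrays and 7 of 8 pravastatin arrays. The fitted rises were 0.25 ± 0.03 with SQ1 (1.19-fold, adjusted p = 9.79e-07) and 0.16 ± 0.03 with pravastatin (adjusted p = 0.000589, 0.12 with adjusted p = 0.0817 within culture series 1, and 0.25 with arrays scaled to 1 spread). The drugs differed by 0.10 ± 0.04 (adjusted p = 0.0901), which passed with the replicate number as a random replicate block (adjusted p = 0.0291) or a fixed replicate block (adjusted p = 0.0416). It also passed without SQ1 replicate 3 (0.12, adjusted p = 0.0378), and its sign turned when arrays were scaled to 1 spread (-0.05, adjusted p = 0.73).

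Set side by side, the smooth muscle type genes had a median log2 change of -0.23 with SQ1 and -0.17 with pravastatin, where the medians of all genes were 0.01 and 0.00. The order of the drugs turned with median centring (-0.14 and -0.18) and with arrays scaled to 1 spread (-0.18 and -0.19). The general actin genes had medians of -0.04 and 0.06, and the first became 0.10 with median centring. On single arrays the median of the smooth muscle type genes minus that of the general actin genes ran from -0.49 through -0.18 to 0.10 with SQ1, below 0 on 7 of 8 arrays. With pravastatin it ran from -0.26 through -0.16 to 0.18, below 0 on 5 of 8 arrays. The groups hold 5 and 4 genes, and these medians are descriptions.

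Of 35 further genes of the actin machinery and other SRF targets, 33 were tested. With SQ1 9 rose and 18 fell (median -0.13), and 13 rose and 15 fell with median centring (median -0.03) and 4 rose and 11 fell when arrays were scaled to 1 spread. With pravastatin 7 rose and 8 fell (median -0.02). Of all genes in the main fit, 32.7% were called higher and 31.2% lower with SQ1, and 19.4% and 19.7% with pravastatin. Shares of all genes with median centring or scaling are not given here, so those counts stand without a background. Of the further genes, the 4 with the largest SQ1 change all fell. Tmsb4x, thymosin beta 4, which sequesters actin monomers, changed by -0.60 ± 0.05 with SQ1 (adjusted p = 1.6e-09, below 0 on 7 of 8 arrays) and by -0.02 ± 0.05 with pravastatin (adjusted p = 0.823). Its SQ1 fall was -0.47 and did not pass when arrays were scaled to 1 spread (adjusted p = 0.0587). The SQ1 arrays ran from -1.05 to 0.004 for Tmsb4x, and its fall was -0.99 on the arrays of 1 dye orientation alone. Its pravastatin value turned with the dye, at -0.47 on the A555 arrays alone (adjusted p = 0.000313) and 0.44 on the A647 arrays alone (adjusted p = 0.000639). Ccn1, a secreted matricellular protein, changed by -0.45 ± 0.04 with SQ1 (adjusted p = 2.63e-09) and -0.06 ± 0.04 with pravastatin (adjusted p = 0.24). Itga5, the alpha subunit of the fibronectin receptor, changed by -0.43 ± 0.03 (adjusted p = 1.86e-09) and -0.02 ± 0.03 (adjusted p = 0.62). All 8 SQ1 arrays were below 0 for both genes.

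Ccn2, connective tissue growth factor, moved in opposite directions. It fell with SQ1 on 8 of 8 arrays, with a log2 change of -0.49 ± 0.05 (adjusted p = 8.01e-08, and -0.29 with median centring), and rose with pravastatin on 7 of 8 arrays, by 0.31 ± 0.05 (adjusted p = 8.13e-05). SQ1 minus pravastatin was -0.80 ± 0.07 (adjusted p = 5.88e-08) and negative in 8 of 8 pairs. For Tmsb4x, Ccn1 and Itga5 the same difference was -0.59, -0.40 and -0.40, with adjusted p-values of 8.77e-07, 4.6e-06 and 1.41e-06. The Tmsb4x difference was -0.22 when arrays were scaled to 1 spread and did not pass (adjusted p = 0.639).

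Most marker lists of other liver cells also fell with SQ1, and the cholangiocyte list did not. For comparison, 32.7% of all genes were called higher and 31.2% lower with SQ1 in the main fit, and 19.4% and 19.7% with pravastatin. These shares do not apply to the counts under other settings, whose shares of all genes are not given here. All 8 hepatocyte markers were well above background in 32 of 32 channel measurements, as the cell type label states, and all 8 fell with SQ1 (median -0.60). With median centring 7 fell with SQ1 (median -0.36), and with arrays scaled to 1 spread 3 fell. With pravastatin 6 fell and 2 rose (median -0.28). Of 16 stellate cell and fibroblast markers 13 were tested, and Lum, Gfap and Thy1 were well above background in at most 2 of 32 measurements. Of these 13, 11 fell with SQ1 (median -0.49) and none rose. With pravastatin 4 of the 13 fell (median -0.06). Within culture series 1 this count was 1, and within series 2 it was 6, where 2 of the 13 were called higher. Of all genes, 3982 were called with pravastatin within series 1, against 7974 in the main fit. The summed levels given here are sums of linear signals, in which the brightest markers weigh most. For these 13 markers the summed normalised level was 28941 to 38042 in SQ1-treated channels. In the untreated channels of the same arrays it was 49158 to 55838, without overlap. With pravastatin it was 43273 to 52352 against 50002 to 55918. Under each drug the sum was lower in the treated than in the untreated channel on 8 of 8 arrays. Of 6 smooth muscle and pericyte markers 5 were tested, with 3 lower under each drug. Their summed levels were 2234 to 2475 against 2696 to 2852 for SQ1 and 2230 to 2558 against 2598 to 2901 for pravastatin. Myh11 and Smtn of this list and Des of the stellate list are also among the further actin machinery genes, so the lists overlap. All 10 macrophage markers fell with both drugs (medians -0.45 with SQ1 and -0.83 with pravastatin), and 4 of them fell with SQ1 when arrays were scaled to 1 spread. Of 7 endothelial markers 4 were tested, of which 3 fell with SQ1 (median -0.28) and 1 with pravastatin. Of 5 cholangiocyte markers 4 were tested, with 1 up and 1 down with SQ1 and 2 up with pravastatin. Their summed level, again one in which the brightest markers weigh most, was higher in the treated channel on every array. It was 28634 to 34374 against 19116 to 23725 for SQ1 and 22742 to 32106 against 18279 to 24476 for pravastatin. The log2 changes of the single markers ran from -0.15 to 0.57 with SQ1 (median 0.02). With pravastatin they ran from -0.06 to 0.37 (median 0.05), so the markers did not rise together. In these bulk samples fewer cells of a type and less RNA per cell cannot be told apart, and the part of either in the Acta2, Myl9 and Tagln values was not tested.

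**Figure D4:**
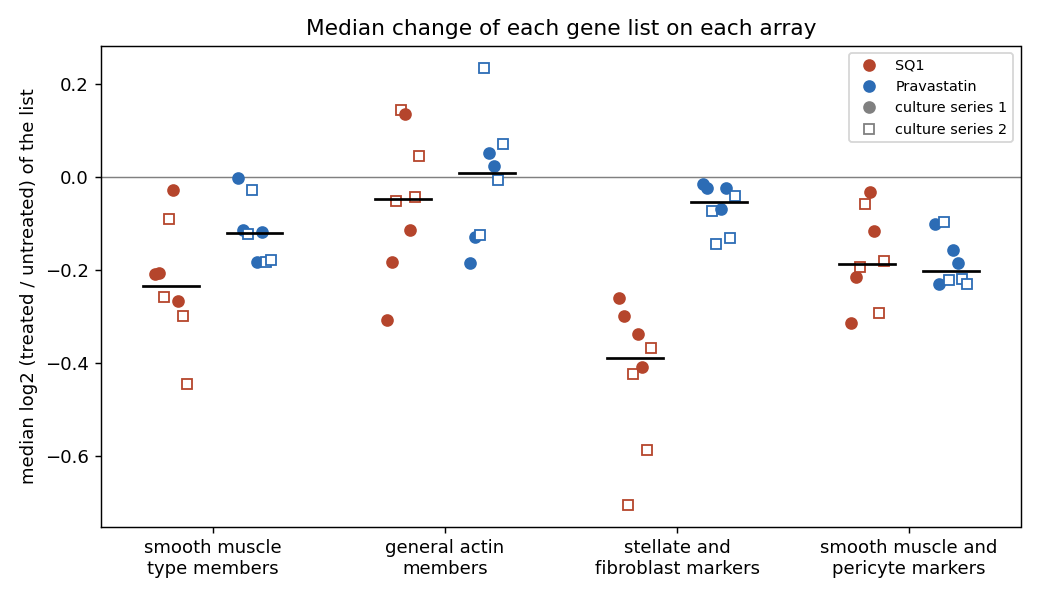
Median log2 of treated over untreated signal on each array for the smooth muscle type genes, the general actin genes, the stellate cell and fibroblast markers and the smooth muscle and pericyte markers, SQ1 in red and pravastatin in blue, filled circles for culture series 1 and open squares for series 2, with the median of 8 arrays as a bar. The smooth muscle type genes sit between -0.45 and -0.03 on the SQ1 arrays, and the general actin genes lie on both sides of 0 under both drugs.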

How the data were processed

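RNA of treated and untreated hepatocyte cultures was measured on 16 arrays. Spots were measured with Agilent Feature Extraction, as the submitters' processing notes name it (10.7.1.1 in the file headers). Per the file headers, the scanner output holds median signal and background per spot as intensity. The deposited ratio column is log10 of red over green processed signal and was not used. The log2 ratio of the red and green processed signals was used as an alternative. The deposited table by the authors holds log2 of treated over untreated, with the columns of the drugs exchanged against the labels, and was used as an alternative only.

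In R 4.3.3 with limma 3.58.1, background was removed by normexp (offset 50), loess normalised each array without control spots, and spots of a probe were averaged. For the summed marker levels, average intensities were also quantile normalised between arrays. Median signals stood in for the planned mean signals. A probe was kept if at least 6 of its 32 channel measurements were well above background, and the brightest stood for its gene. Genes were named by accession through RefSeq (GRCr8). The model held both drugs and a dye term, tests were two-sided and p-values Benjamini-Hochberg adjusted over 20395 genes. Same-numbered arrays of the drugs share a control number in the deposited names, and they are paired by that number alone. Their residuals correlated at 0.139 to 0.629. For numbers 2, 3, 7 and 8 this was below the best correlation with an array of another number (0.139 against 0.328 for number 8). The best was taken over many arrays, which favours it over a single value. The consensus correlation within replicate numbers was 0.394, and the main fit did not model it. The fit was also run on simulated data with independent arrays, so that run does not cover correlation between arrays.

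Arrays had median signals of 588 to 663 in A555 (background 306 to 315) and of 790 to 1076 in A647 (background 339 to 348). No spot was saturated, and the number of arrays limits the precision. Every gene of the 10 is named whatever its value, and from the pathway lists those with the largest change are named. The genes and lists were chosen with earlier results of these data known. 1 planned gene list is not reported here.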

Additional observations from a re-analysis of the deposited data

Results flagged for a closer look

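On pravastatin replicate 4 the log2 ratio of Actn1 was 0.41, farther from the other 7 pravastatin arrays than Dixon's test allows. On pravastatin replicate 2 the ratio of Srf was -0.0061, below the other 7 by the same measure. Both came from 20 groups of 8 arrays, and chance marks about 1 in 20 groups.

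The fall of Acta2 with SQ1 differed between the culture series by -0.30 and that of Myl9 by -0.26, series 2 minus series 1, by the interaction term of the fit, with values for both series in the report. Scan day and slide cannot be told apart from the series.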

How the results depend on the processing

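The SQ1 values of Acta2, Myl9, Tagln and Srf and the pravastatin values of Myl9 and Tagln kept their direction and their call in all 29 alternatives that keep the drug labels and both dye orientations (background, centring, scaling, filters, probe choice, blocks, culture series and leaving out each replicate), as did the Acta2 and Cnn1 differences between the drugs in all 30. Over the 10 genes and 4 further named genes, 1284 of 1358 values kept their side of the threshold, without a turn of sign in a called value. The replicate block changed 2 calls of the 10 genes, the drug differences of Srf and Actn1. It made 2 genes higher in SQ1 minus pravastatin, as random and as fixed replicate block, against 1 without it, and changed no other call of the 10 genes.

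Reading the deposited table as labelled exchanges the drugs. It called 13428 genes for pravastatin and made 2 genes higher between the drugs, as did Agilent's processed signals and the table with the drugs exchanged. Among values called under at least one of the readings compared, its signs turned for pravastatin in Cnn1 (0.37), Ccn2 (-0.51) and Tpm1 (-0.079), and for SQ1 in Cnn1 (-0.62), Ccn2 (0.32), Tmsb4x (0.0015) and Tpm1 (0.029). For the difference they turned, among called values, in Acta2 (0.56), Ccn1 (0.38), Ccn2 (0.82), Cnn1 (-0.99), Itga5 (0.46), Srf (-0.13), Tmsb4x (0.63) and Tpm1 (0.11).

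With the labels kept, and among values called under at least one of the settings compared, signs turned for Actg1 under pravastatin when arrays were scaled to 1 spread (-0.0015), for Actg1 on the A555 arrays alone, added after its values were seen (-0.27 with pravastatin, -0.19 with SQ1), for Tmsb4x under pravastatin on the A647 arrays alone (0.44) and for Tpm1 under SQ1 with median centring (0.047). Values called under neither setting also turned, among them Actb, Vcl and Actn1 against untreated and the Myl9, Srf, Tagln, Actb and Actg1 differences between the drugs. The cause was not tested.

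Of the 10 genes, 1 was called higher with pravastatin when scaled, without a filter, with the mean of probes, without the dye term or with slide as a block, and 0 within culture series 1 or on the A555 arrays. Leaving out 1 replicate gave 1 to 2, with 1 without pravastatin replicate 3, 4, 6, 7 or 8, where Actg1 lost its call. With SQ1 1 was higher when scaled, and smaller moves of the counts came from single genes. Cnn1 lost its SQ1 call with median centring, scaling, slide as a block, within either series and on the A647 arrays alone. Actg1 lost its SQ1 call with scaling, the mean of probes, without the dye term and on the A555 arrays alone. Tpm1 lost its SQ1 call with median centring, scaling, within series 2 and on the A555 arrays alone. Actn1 was called lower with SQ1 within series 1. Between the drugs 1 was lower with median centring, scaling, the mean of probes, slide as a block, within series 1 and on the arrays of either dye orientation alone, and 1 to 2 were higher when 1 replicate was left out (2 without SQ1 replicate 3). Genes called with pravastatin numbered 3982 within series 1 and 4742 on A555 arrays, against 7974. Between the drugs they numbered 3726 when scaled, 4803 within series 1, 5113 on A647 and 3930 on A555 arrays, against 7759. Subsets hold fewer arrays. Signal over background limits Cnn1.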

Other observations

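By the residuals of the 16 arrays after the drug and dye terms, the named genes most like Acta2 were Abca2 (Pearson's r = 0.940), Nrxn2 (0.937), Pear1 (0.935), Klhdc8a (0.924) and Ralgdsl3 (0.916). For Actb they were Tpd52 (0.959), Elovl5 (0.958), RT1-CE10 (0.932), Tpm4 (0.919) and Sh3bgr (0.919). These were the highest of all named genes, share the same arrays and are given as a description. Among the 10 genes themselves the residuals of Actb went with those of Actn1 (r = 0.813) and Tagln (r = 0.756) and against those of Acta2 (r = -0.731).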
